A study of Mus musculus with 13 samples.

Results

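Bmp15, Gdf9, Bmp6, Fgf8, Kit and Gja4 were followed in single mouse oocytes. They are 6 genes through which the oocyte signals to, and stays in contact with, the cumulus and granulosa cells around it. They were chosen by symbol from the 18939 genes of the count tables, which hold all 6, and all 6 passed the filter on low counts in every comparison. The study sequenced single oocytes in 13 libraries, 3 of SN GV oocytes, 3 of NSN GV oocytes, 4 of MII oocytes that developed from the SN type (SN-MII) and 3 from the NSN type (NSN-MII). A GV oocyte is arrested in prophase of meiosis I with its nucleus, the germinal vesicle, intact, and an MII oocyte is arrested at metaphase of meiosis II. In the SN (surrounded nucleolus) type condensed chromatin forms a ring around the nucleolus, and in the NSN (non-surrounded nucleolus) type it does not. All oocytes came from PMSG-primed juvenile C57BL/6 females, for which the sources used here name no transgene or deletion. In all groups, and therefore in the SN oocytes used as the reference too, the oocytes were injected with FBL-GFP mRNA, with H2B-mCherry mRNA injected alongside. They were held at GV for 6 h in Cilostamide, an inhibitor of the phosphodiesterase PDE3A, and sorted by the FBL-GFP pattern of the nucleolus. MII oocytes were then matured in vitro, and the zona pellucida was removed before lysis. No source used here says which oocytes shared a female, so the p-values below are set against the spread between these single-oocyte libraries.

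GDF9 and BMP15 are TGF-beta family ligands secreted by the oocyte, which act on cumulus and granulosa cells to direct their growth, metabolism and cumulus expansion. BMP6 is a further BMP ligand of the oocyte, and FGF8 is an oocyte-derived FGF that acts on cumulus cells together with BMP15 to promote glycolysis. KIT is the receptor tyrosine kinase of the oocyte for KIT ligand from granulosa cells. GJA4, connexin 37, forms the gap junction channels between oocyte and cumulus cells through which small molecules pass during growth and meiotic arrest. SN oocytes make little new RNA, while NSN oocytes still transcribe. During maturation the stored mRNAs of the oocyte are lengthened or shortened at the poly(A) tail, translated and degraded. SMART-seq2, the method used here, primes cDNA on the poly(A) tail. Loss of an RNA and loss of its tail therefore cannot be told apart in these values, nor can gain of an RNA and growth of its tail.

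Total counts per library lay between 7140416 and 8846287. Genes with at least 1 count numbered 12699 to 13342 at GV and 11593 to 12522 at MII. The third NSN-MII oocyte had the fewest genes of all libraries, 11593, and the largest share of counts in its 10 most abundant genes, 12.1%. The second NSN GV oocyte had the fewest genes at GV, 12699. The 13 oocyte markers examined were detected in every library, from Ddx4 with a mean of 24.5 FPKM to Dppa3 with 3048 FPKM. Of 20 cumulus and granulosa markers, Foxl2, Ptx3 and Lhcgr were at 0 in all 13 libraries, and the summed level of the list was 179.7 to 231.0 CPM at GV and 218.9 to 286.2 CPM at MII. Its highest members were Esr2, Cyp19a1 and Nr5a2, with mean levels of 39.0, 30.6 and 5.50 FPKM. Kitl followed with 3.18 FPKM, and each of the remaining markers averaged 0.569 FPKM or less. Among these, Gja1, the main connexin of cumulus cells, averaged 0.0946 FPKM. Cyp19a1 alone was at 50.5 CPM at GV and 103 CPM at MII. The oocyte markers summed to 20310 to 26980 CPM at GV and 10130 to 11180 CPM at MII.

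On the FPKM scale, which divides by transcript length and so allows genes to be compared, the 6 genes spanned more than 2 orders of magnitude. At GV the order from high to low was Gdf9, Bmp15, Gja4, Fgf8, Kit and Bmp6 in 5 of 6 oocytes. In the other, the second NSN GV oocyte, Gja4 (634 FPKM) lay above Bmp15 (541 FPKM). At MII the order was Gdf9, Bmp15, Kit, Gja4, Fgf8 and Bmp6 in 5 of 7 oocytes. In the other 2, Bmp6 lay above Fgf8. Kit thus stood below Gja4 in each GV oocyte and above it in each MII oocyte, with no overlap between the levels of both genes in any group. Among neighbors in the order, Bmp15 and Gja4 overlapped in NSN GV oocytes, and Fgf8 and Bmp6 overlapped in both MII groups. Gdf9 ranked between 9 and 27 among all genes of the FPKM table at GV and between 5 and 9 at MII. Bmp6, the lowest of the 6 at GV, ranked between 5257 and 6992 at GV and between 5658 and 6467 at MII.

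**Figure D1:**
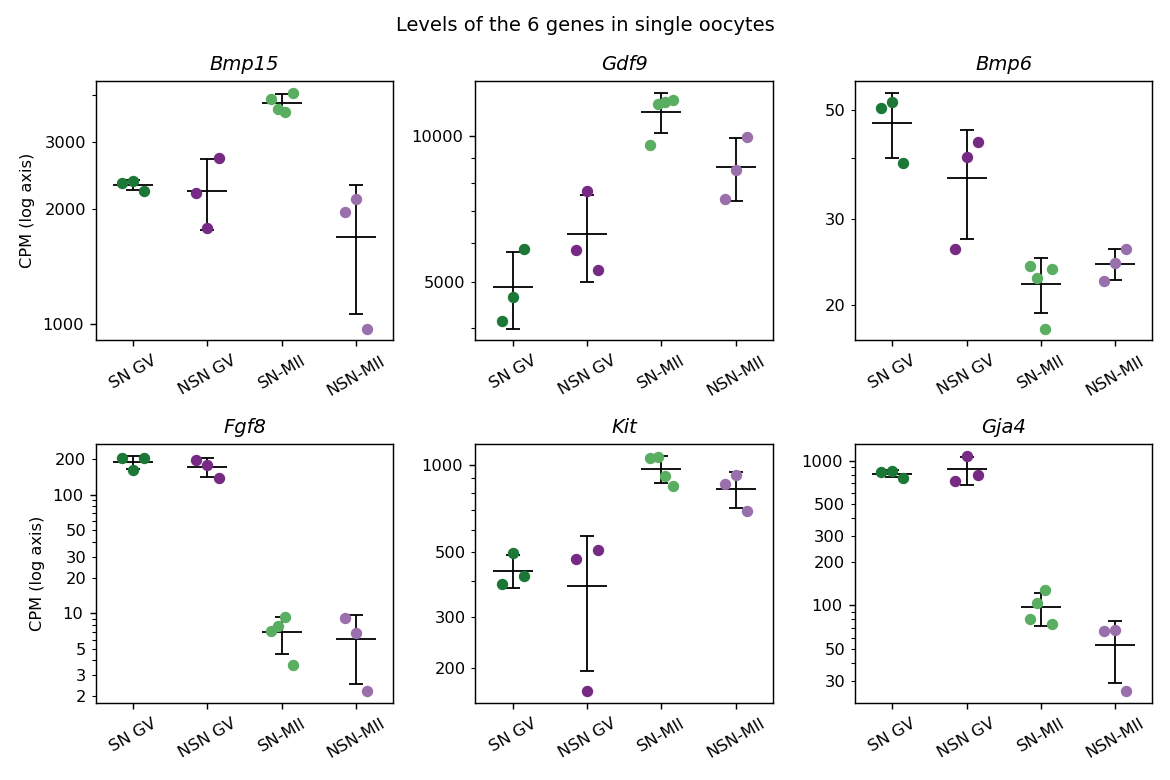
Level of each gene in CPM (log axis) by group. Points are single oocytes, horizontal bars are group means and vertical bars are 1 SD (n = 3, 3, 4 and 3). Fgf8 and Gja4 lie far lower in both MII groups than in both GV groups, Kit lies higher in both, and Bmp15 separates SN-MII (3611 to 4051 CPM) from NSN-MII oocytes (971 to 2128 CPM).

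Levels within 1 gene are given below in CPM, counts scaled by library size with TMM factors over the 13 libraries. A positive log2 fold change means higher in NSN than in SN oocytes, or higher at MII than at GV. Tests are edgeR's quasi-likelihood tests, and each adjusted p is Benjamini-Hochberg adjusted over all genes tested. Here "called" means an adjusted p under 0.05 in that test. Between SN and NSN oocytes at GV, none of the 6 genes was called. This stood against 0 of 10839 genes, or 0%, and 183 genes had an unadjusted p under 0.05 in that test. DESeq2 also called 0 genes there. With a filter on FPKM, limma called 1, which was none of the 6, and with no such filter it called 0. Both types had separate ranges of CPM at GV for 6.03% of genes tested, and overlapping ranges for all 6 genes described here.

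The 95% intervals of the NSN to SN differences at GV give, for each gene alone, the differences compatible with these libraries. They are not adjusted for the number of genes tested and do not say what difference would have been called. Bmp15 was at 2317 ± 70.7 CPM (SD, n = 3) in SN GV and 2242 ± 477 CPM (SD, n = 3) in NSN GV oocytes, a log2 fold change of -0.03 with an interval of -0.42 to 0.36. Gdf9 was at 4873 ± 877 CPM and 6264 ± 1271 CPM, a log2 fold change of 0.37 (-0.07 to 0.82). Bmp6 was at 47.1 ± 7.14 CPM and 36.4 ± 9.12 CPM, a log2 fold change of -0.37 (-0.90 to 0.17). For Fgf8 (-0.60 to 0.37) and Gja4 (-0.25 to 0.47) the intervals lay on both sides of 0. Kit had the widest interval, -0.99 to 0.71, and its level in NSN GV oocytes ran from 166.1 CPM in the second oocyte to 475.7 and 508.0 CPM in the others. Without that oocyte, the log2 fold change of Kit went from -0.14 to 0.22, that of Bmp15 from -0.03 to 0.13, that of Gja4 from 0.11 to -0.05 and that of Gdf9 from 0.37 to 0.23, and none was called. Without the first NSN GV oocyte that of Bmp6 went from -0.37 to -0.21, and without the third that of Fgf8 went from -0.11 to 0.04.

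At MII, Bmp15 was lower in each NSN-MII oocyte than in each SN-MII oocyte. The SN-MII oocytes had 3897, 3669, 3611 and 4051 CPM, and the NSN-MII oocytes had 1972, 2128 and 971.0 CPM. The SN-MII oocytes were thus close together and the NSN-MII oocytes were spread, the third being the lowest. The log2 fold change was -1.16 (standard error 0.24, 95% interval -1.70 to -0.63), a 2.24-fold lower level in NSN-MII oocytes. It did not pass the threshold in edgeR's quasi-likelihood test (adjusted p = 0.0826), which called 28 of 10028 genes, or 0.279%. Without the third NSN-MII oocyte the difference was smaller, at -0.88, its standard error fell to 0.11 and it was called (adjusted p = 0.00248), among 240 genes called without that library. DESeq2, with 218 genes called, gave Bmp15 an adjusted p of 0.000570, the fit of all 13 libraries 0.0284 and the test with no filter on low counts 0.0249. The other settings gave adjusted p-values between 0.0777 and 0.556 and log2 fold changes between -1.38 and -1.09. Leaving out any of the other 6 MII libraries left Bmp15 uncalled.

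**Figure D2:**
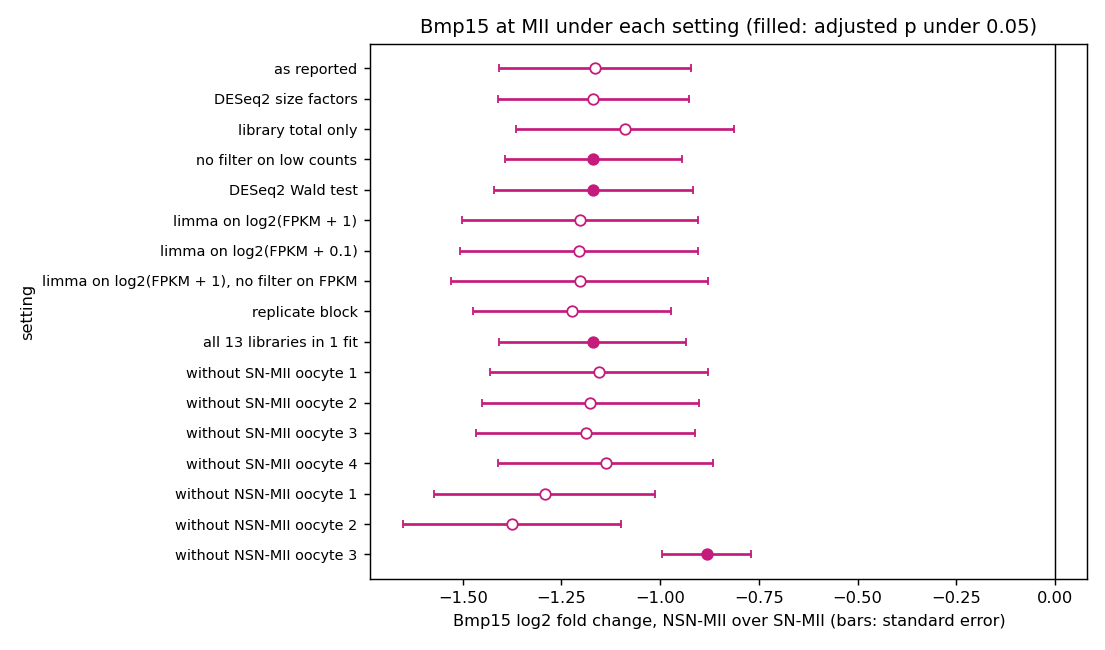
Log2 fold change of Bmp15, NSN-MII over SN-MII oocytes, under each setting of the test. Bars are standard errors and filled points have an adjusted p under 0.05. All points lie between -1.38 and -0.88, and 4 of the 16 other settings call the gene.

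None of the other 5 genes was called between NSN-MII and SN-MII oocytes. Gja4 had 80.3, 104.4, 128.4 and 74.4 CPM in SN-MII and 67.0, 67.8 and 25.5 CPM in NSN-MII oocytes. These ranges did not overlap, but those in FPKM did, since the first and second NSN-MII oocytes (41.1 and 40.6 FPKM) exceeded the fourth SN-MII oocyte (38.2 FPKM). Its log2 fold change was -0.85 (standard error 0.33, edgeR adjusted p = 0.409), and it was -0.51 without the third NSN-MII oocyte. Gdf9 had 9592, 11618, 11742 and 11855 CPM in SN-MII and 7392, 8510 and 9960 CPM in NSN-MII oocytes. These overlapped in CPM and did not in FPKM, where they were 4995 to 6154 against 4238 to 4756. The log2 fold change of Gdf9 was -0.38 (standard error 0.16, edgeR adjusted p = 0.456). Libraries of both types did not overlap in CPM for 10.2% of genes tested at MII, and for 2 of these 6, Bmp15 and Gja4.

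Kit, at 849.6 to 1065 CPM in SN-MII and 697.5 to 928.1 CPM in NSN-MII oocytes, had a log2 fold change of -0.23 with a 95% interval of -0.58 to 0.12, and of -0.11 without the third NSN-MII oocyte. Bmp6 was at 22.1 ± 2.86 CPM and 24.3 ± 1.82 CPM, a log2 fold change of 0.13 (-0.39 to 0.65). Fgf8, at under 10 CPM in all MII oocytes, had the widest interval of the 6, -1.32 to 0.95. Its log2 fold change turned from -0.19 to 0.20 without the third NSN-MII oocyte, which had 2.20 CPM.

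The relative abundance of Gdf9 and Bmp15 differed in the same libraries. In the mouse, the GDF9 and BMP15 proteins cooperate. The ratio of Gdf9 to Bmp15 FPKM was 3.20, 3.55 and 4.70 in SN GV oocytes and 4.74, 7.80 and 3.49 in NSN GV oocytes, so both types overlapped. It was 4.42, 5.68, 5.84 and 5.26 in SN-MII oocytes. In NSN-MII oocytes it was 6.74, 7.17 and 18.4, above each SN-MII oocyte, with the highest value in the third oocyte. The ratio was not tested, and on the CPM scale, which takes no account of length, its values are lower in each group.

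**Figure D3:**
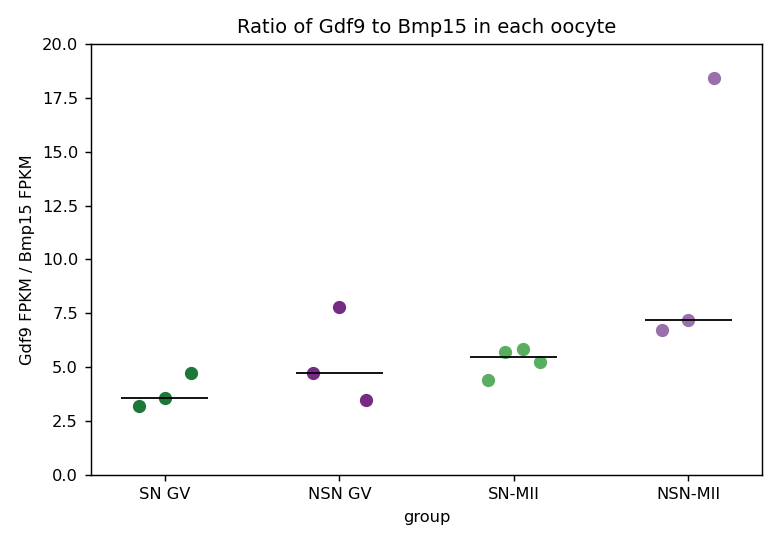
Ratio of Gdf9 to Bmp15 FPKM in each oocyte, by group. Points are oocytes and bars are group medians (3.55, 4.74, 5.47 and 7.17). The NSN-MII oocytes lie above the SN-MII oocytes, and 1 of them, at 18.4, lies apart.

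A change of the type difference between GV and MII was tested as an interaction, with all 13 libraries in the model. None of the 6 genes was called, against 2 of 11375 genes or 0.0176%. There, 603 of the 11375 genes had an unadjusted p under 0.05. The 95% intervals that follow are likewise not adjusted for the number of genes tested. Bmp15 had an interaction of -1.12 on the log2 scale (95% interval -1.84 to -0.41, edgeR adjusted p = 0.576). For Gdf9 it was -0.74 (-1.33 to -0.15, adjusted p = 0.805) and for Gja4 -0.95 (-1.83 to -0.07, adjusted p = 0.900). The value for Gja4 was -0.63 without the third NSN-MII oocyte. For Bmp6 (-0.25 to 1.26), Fgf8 (-1.10 to 1.02) and Kit (-0.92 to 0.81) the intervals included 0.

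From GV to MII, over both types, 5 of the 6 genes were called. Gdf9 and Kit rose and Fgf8, Gja4 and Bmp6 fell, while Bmp15 had an adjusted p of 0.427. Over all 11375 genes tested the share called was 68.5%, with 31.7% higher and 36.8% lower, so being called at this step does not set a gene apart. The median log2 fold change of all genes tested was -0.10, against a median absolute change of 1.14. Scaled by the library total alone, it was -0.39, a shift of all genes that the changes below should be read against. Levels are relative to the other RNA of a library. A rise or fall below, also in the lists, is therefore a relative change, on the TMM scale unless another is named. It can differ from the change in share of the library total. The amount of RNA per oocyte was not measured.

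Fgf8 fell most. It had 202.6, 160.9 and 205.4 CPM in SN GV and 198.0, 180.1 and 138.1 CPM in NSN GV oocytes. In SN-MII oocytes it had 7.03, 7.84, 9.33 and 3.68 CPM, and in NSN-MII oocytes 9.17, 6.80 and 2.20 CPM. No MII oocyte came near the lowest GV oocyte. The fall was 27.5-fold, a log2 fold change of -4.78 (standard error 0.28, edgeR adjusted p = 3.63e-10). It was -4.76 in SN and -4.80 in NSN oocytes. At MII the counts behind these values were 13 to 77 per library, and those at GV were 1092 to 1883.

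Gja4 fell 11.7-fold, from 815 ± 43.8 CPM (SD, n = 3) in SN GV and 871 ± 190 CPM (SD, n = 3) in NSN GV oocytes to 96.9 ± 24.7 CPM (SD, n = 4) in SN-MII and 53.4 ± 24.2 CPM (SD, n = 3) in NSN-MII oocytes. Each GV oocyte had at least 728.2 CPM and no MII oocyte more than 128.4 CPM. The log2 fold change was -3.55 (standard error 0.23, edgeR adjusted p = 7.99e-10), with -3.07 in SN and -4.02 in NSN oocytes. The fall therefore left Gja4 with 12.5 to 71.4 FPKM at MII, below Kit in each oocyte. Bmp6 fell less, from 41.7 ± 9.40 CPM (SD, n = 6) at GV to 23.0 ± 2.55 CPM (SD, n = 7) at MII. Its log2 fold change was -0.84, with a standard error of 0.18 (edgeR adjusted p = 0.000541). The first NSN GV oocyte, at 25.97 CPM, was as low as the highest MII oocyte, at 26.01 CPM. In NSN oocytes alone Bmp6 had a log2 fold change of -0.58 and was not called (adjusted p = 0.0685). It was called there without that oocyte, at -0.78 (adjusted p = 0.0235). Its gene overlaps Txndc5 and 4930579J19Rik, which is annotated on the opposite strand, and SMART-seq2 does not mark strand, so that reads of these genes may be mixed.

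Gdf9 and Kit rose. Gdf9 went from 5569 ± 1239 CPM (SD, n = 6) at GV to 10096 ± 1743 CPM (SD, n = 7) at MII. The log2 fold change came to 0.83 (standard error 0.14, edgeR adjusted p = 6.01e-05). The stages overlapped in CPM, since the second NSN GV oocyte (7701 CPM) exceeded the first NSN-MII oocyte (7392 CPM). They did not overlap in FPKM, but these same oocytes lay close there, at 4218 and 4238 FPKM. Shares of all genes without overlap were counted in CPM only. In SN oocytes its log2 fold change was 1.201 (adjusted p = 7.79e-05). In NSN oocytes it was 0.46 (adjusted p = 0.0641), and without the second NSN GV oocyte 0.64 (adjusted p = 0.0210). Kit had 389.1, 496.0 and 414.8 CPM in SN GV and 475.7, 166.1 and 508.0 CPM in NSN GV oocytes. It had 1058, 1065, 918.8 and 849.6 CPM in SN-MII and 861.4, 928.1 and 697.5 CPM in NSN-MII oocytes, each above the highest GV oocyte. Its log2 fold change was 1.14 over both types (standard error 0.21, edgeR adjusted p = 0.000131), 1.17 in SN and 1.11 in NSN oocytes. In NSN oocytes it was 0.75 without the second NSN GV oocyte (adjusted p = 0.00559).

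Bmp15 had log2 fold changes of opposite sign in the 2 types from GV to MII, and the one in SN oocytes was called. In SN oocytes it rose from 2237 to 2372 CPM at GV to 3611 to 4051 CPM at MII, by 0.72 on the log2 scale (standard error 0.23, edgeR adjusted p = 0.0153). In NSN oocytes it was at 1783 to 2734 CPM at GV and 971.0 to 2128 CPM at MII, with a log2 fold change of -0.41 and an adjusted p of 0.169 by edgeR. This value was -0.15 without the third NSN-MII oocyte and -0.23 without the third NSN GV oocyte, and it stayed below 0 without any 1 library (-0.60 to -0.15). The test of the difference between both, given above, did not pass the threshold. The call in SN oocytes was lost without the third SN GV oocyte (log2 fold change 0.69, adjusted p = 0.0539), with scaling by the library total alone (0.42, adjusted p = 0.178) and with limma on FPKM (0.56, adjusted p = 0.0921). Read against the median of all genes, the change was 0.79 with TMM and 0.79 with the library total. Over both types, the log2 fold change of 0.15 became 0.27 without the third NSN-MII oocyte (adjusted p = 0.0382) and -0.12 with scaling by the library total alone. All 6 genes were called in SN oocytes, against 56.3% of genes tested, and 3, namely Fgf8, Kit and Gja4, in NSN oocytes, against 56.1%. GV and MII libraries of both types together did not overlap in CPM for these same 3 genes, against 47.4% of genes tested.

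**Figure D4:**
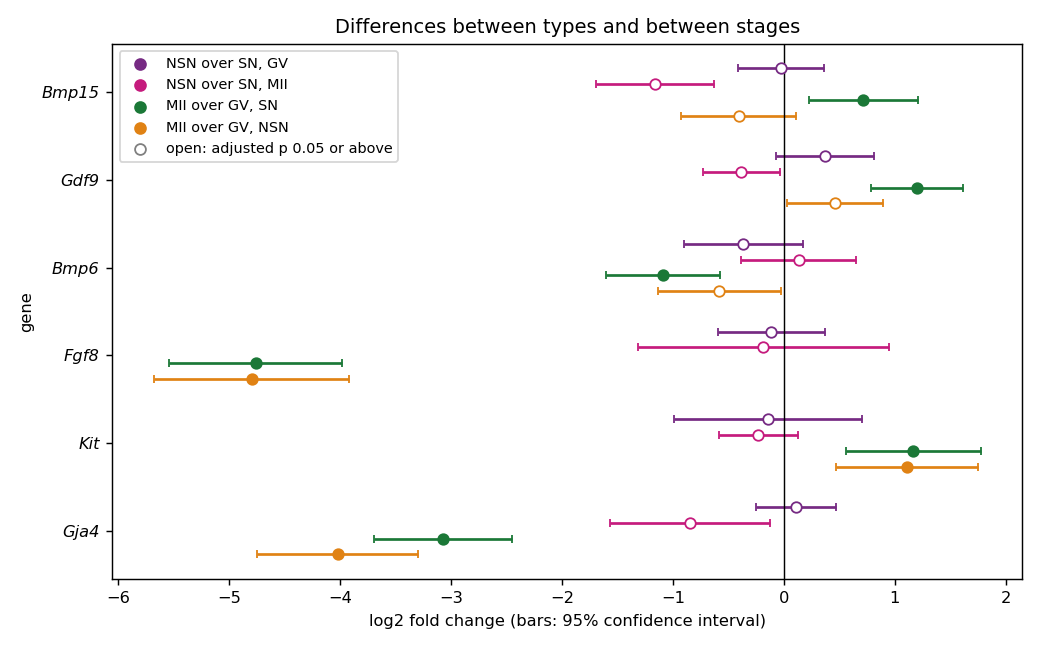
Log2 fold changes of the 6 genes between types (NSN over SN, at GV and at MII) and between stages (MII over GV, in SN and in NSN oocytes). Bars are 95% confidence intervals, and filled points have an adjusted p under 0.05. No difference between types is filled, and Fgf8 and Gja4 lie below -3 at the step from GV to MII in both types.

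The 3′ ends of these mRNAs are shown because the poly(A) tail, on which the libraries were primed, is added there. A cleavage and polyadenylation signal (AATAAA) and, in many mRNAs whose tails grow during maturation, a cytoplasmic polyadenylation element (TTTTAT or TTTTAAT) lie close to the end. These letters were searched for on the transcript strand only, in the last 100 bases of the annotated transcript of each gene, by GENCODE on mm10. The 30 bases that end with the AATAAA signal are given 5′ to 3′ as DNA for the 4 genes that have it, with the signal and any polyadenylation element in capitals. TTTTAAT can share bases with AATAAA, which does not occur in these 4 stretches.
Gdf9, rising, plus strand of chr11:53437858-53437887: tgctgtggTTTTATgtgacggaagAATAAA
Kit, rising, plus strand of chr5:75656672-75656701: ctgttgacagttctgaagaattctAATAAA
Bmp15, minus strand of chrX:6314129-6314158: ttatgtattttcttaatcttaaagAATAAA
Gja4, falling, minus strand of chr4:127311437-127311466: tagttccactgtttatgatcctcaAATAAA
All 4 lie in a 3′ UTR. Gdf9 held the element TTTTAT 10 bases before the signal, and Kit, Bmp15 and Gja4 held neither form within the 100 bases. In Kit the nearest element began outside this window, 145 bases from the end. No such distance was recorded for Bmp15 or Gja4. Bmp6 had an element but no AATAAA there, and Fgf8 had neither. Among 11240 genes tested with an annotated end, 19.5% held TTTTAT or TTTTAAT in the last 100 bases and 66.5% held AATAAA. A match is a description of the annotated end, and which end the oocytes used was not measured.

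On the mm10 assembly, Bmp15 lies on chromosome X from 6314107 to 6320721 (minus strand, 2 exons), Gdf9 on chromosome 11 from 53431023 to 53437904 (plus strand, 2 exons) and Bmp6 on chromosome 13 from 38345107 to 38500302 (plus strand, 7 exons). Fgf8 lies on chromosome 19 from 45736798 to 45742915 (minus strand, 5 exons), Kit on chromosome 5 from 75574916 to 75656722 (plus strand, 21 exons) and Gja4 on chromosome 4 from 127311421 to 127314039 (minus strand, 2 exons). Exons are those of the transcript searched above. The 6 thus lie on 6 different chromosomes.

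The other genes of the same pathways were described by lists that leave the 6 out. Between NSN and SN oocytes, none of their genes was called at GV, at MII or in the interaction. The lists were compared between stages over both types, where 68.5% of all genes tested were called, 31.7% higher and 36.8% lower. From GV to MII, TGF-beta family ligands had 2 of 4 tested genes called higher and 1 lower, with a median log2 fold change of 0.77 against -0.10 for all genes tested. Bmp5 rose from 146.1 ± 33.7 CPM (SD, n = 6) to 544 ± 110 CPM (SD, n = 7), or by 1.89 on the log2 scale, and Tgfb2 by 1.15. Tgfb3 fell by 1.25 on the log2 scale. Bmp6 thus fell while Bmp5, a BMP ligand of the same subgroup, rose. The difference between both genes was not tested.

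Of the TGF-beta family receptors, 6 of 9 tested genes were called higher and 0 lower (median 1.03), and their total called, like that of the lists that follow, is to be read against the 68.5% of all genes. Bmpr1b, a type I receptor that binds BMPs, had a log2 fold change of 1.35 and Tgfbr1 of 1.54, while Acvr2b went from 0.987 CPM at GV to 3.72 CPM at MII. Of SMADs and modulators, 6 of 11 were higher and 3 lower (median 0.67). Smad1, Smad3 and Smad4, which carry the signal to the nucleus, had log2 fold changes of 1.69, 1.54 and 1.38. The pseudoreceptor Bambi fell from a mean of 5.66 CPM at GV to 0.204 CPM at MII, Smad9 from 1.93 to 0.428 CPM, and the repressor Ski had a log2 fold change of -0.92. Of proprotein convertases, which cut TGF-beta family proproteins to the mature ligand, 2 of 4 were higher, Furin by 1.36 and Pcsk7 by 0.75, and 0 lower (median 0.92).

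Of the other FGF signalling genes, 5 of 10 tested were called higher and 1 lower (median 0.79). The receptors Fgfr1 and Fgfr2 rose by log2 fold changes of 1.34 and 1.15, and Fgf9 by 1.13 from 4.10 to 8.94 CPM. Spry1, an inhibitor of receptor tyrosine kinase signalling, fell from 62.1 ± 8.40 CPM (SD, n = 6) to 11.1 ± 5.46 CPM (SD, n = 7). In the same list, Spry4 was not called (0.38, edgeR adjusted p = 0.0939), and Spred1 and Spred2 were called higher (0.97 and 1.11). Of KIT and PI3K signalling genes, 13 of 26 were called higher and 3 lower (median 0.76). Pdpk1 and Akt1, kinases that pass PI3K signalling on, had log2 fold changes of 1.46 and 1.45. Tsc2, an inhibitor of mTORC1, fell from 974 ± 107 CPM (SD, n = 6) to 86.4 ± 25.9 CPM (SD, n = 7), and its log2 fold change was -3.51. Pik3cd had a log2 fold change of -1.71 in counts, from 511.3 to 161.9 CPM, but its mean FPKM was 118.4 at GV and 106.3 at MII, so the deposited measures differ for this gene. Pik3r2 went from a mean of 3.67 CPM to 0.0751 CPM.

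Of the gap junction and adhesion genes, 13 of 20 tested were called higher and 2 lower (median 0.87). Gja4 was therefore in the minority that fell, with Cd9, the tetraspanin that sperm fusion needs (log2 fold change -3.38), and the channel gene Panx1 (-2.52). Ctnnd1, Itga6 and Cdh2, which encode a catenin, an integrin chain and N-cadherin, rose by 1.71, 1.67 and 1.57. None of the other 4 connexin genes tested, Gja3, Gja5, Gja10 and Gjb2, which were picked out after their values were seen, was called over both types. At mean levels of 0.534 to 2.51 FPKM they lay far below the 263 FPKM of Gja4 over all libraries. Of the oocyte markers 8 of 13 fell and 2 rose (median -0.74). Zp3, Zp2 and Padi6 had log2 fold changes of -3.84, -3.27 and -2.86, and Oosp1 and Dppa3 of 0.63 and 0.58. Of the cumulus and granulosa markers 2 of 7 were called higher, Kitl at 4.11 and 9.69 CPM and Cyp19a1 at 50.5 and 103 CPM. The part that RNA from somatic cells had in the values of the 6 genes was not tested.

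Within 1 type, some of the lists held other leading genes. In SN oocytes the actin bundling gene Fscn1 and the connexin gene Gjb2 rose most of the gap junction and adhesion genes. Their log2 fold changes were 2.50 and 2.24, at low and spread levels. Over both types, Fscn1 was at 2.93 ± 1.38 CPM (SD) at GV and 7.68 ± 4.46 CPM at MII. Gjb2 was at 4.055 ± 2.14 CPM and 8.78 ± 6.74 CPM. In NSN oocytes Ctnnd1 rose most, by 2.38, as it did over both types. Kitl, the gene of KIT ligand, had a log2 fold change of 1.94 in NSN oocytes. None of these changes was called as different between the types. With the library total in place of TMM, none of the genes named for both types together changed direction, and Pcsk7, Fgf9 and Dppa3 were no longer called. The list medians were then 0.31 to 0.71 for the lists above 0 and -1.02 for the oocyte markers. The gap junction and adhesion genes were then 8 higher and 2 lower, and the cumulus and granulosa markers 2 higher and 2 lower.

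**Figure D5:**
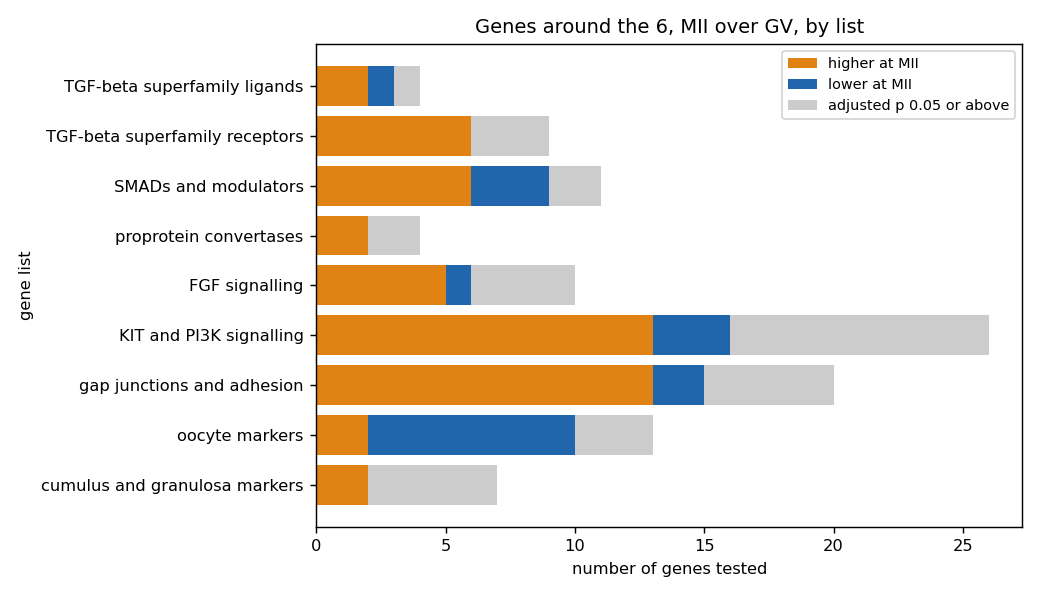
Number of genes called higher at MII, called lower at MII or not called, in each list of pathway and marker genes, over both types (adjusted p under 0.05 by edgeR). The 6 genes are left out. Receptors of the TGF-beta family have 6 higher and 0 lower of 9, and oocyte markers have 2 higher and 8 lower of 13.

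The genes whose profile over the 13 libraries was most like each of the 6 were sought by the root mean square (RMS) difference of their centered log2 CPM. For Kit these were Msh6 (RMS 0.144), Dopey2 and Synj1. For Bmp15 they were Me1 (0.199), Git2 and Unk, and for Gdf9 Ift20 (0.183), Taldo1 and Slc6a20a. The closest to Fgf8 were Mrps22 (0.272) and Akr7a5, to Gja4 Elobl (0.161), Ruvbl2 and Tbc1d25, and to Bmp6 Cldnd1 (0.143), Tnfaip8 and Sart3. The spread of the 6 themselves over the libraries, as an SD of log2 CPM, was 0.501 for Bmp6 to 2.57 for Fgf8. None of the closest genes was another of the 6. The points share library and stage.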

How the data were processed

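RNA of 13 single mouse oocytes was sequenced after SMART-seq2 amplification and Tn5 tagmentation. The authors trimmed reads with Trim Galore 0.4.4, mapped them to mm10 with Bowtie2 2.3.5 and counted with RSEM 1.2.28. Deposited expected counts (1 table per stage, raw) were rounded to whole numbers here, and the deposited FPKM values (fragments scaled by transcript length and mapped reads) served for levels between genes. Columns named the samples by group and replicate. The 6 genes and all lists were chosen with earlier results of these data known.

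edgeR 4.0.16 in R 4.3.3 tested each comparison with filterByExpr, TMM scaling and robust quasi-likelihood fits. NSN and SN were compared within a stage, and stages and the interaction in a fit of 4 group means. Standard errors were taken from the F statistic. The edgeR code was run on simulated counts with a fixed dispersion and far fewer changed genes than were called here from GV to MII. Alternatives were DESeq2 1.42.0, limma 3.58.1 with trend on log2(FPKM + 1), with a mean FPKM of at least 1, or log2(FPKM + 0.1), other scaling, no filter, a replicate block and leaving out each library. Named genes were the 6, the 3 largest called rises and falls per list, the 3 most alike genes (log2 CPM with a prior count of 2) and the 3 highest somatic markers. Some genes that this rule names are not reported here. Transcript ends came from GENCODE.

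Total counts of 7140416 to 8846287 per library gave the 6 genes 13 counts or more in each. The common biological coefficient of variation, 0.352 at GV and 0.344 at MII, was the spread between single-oocyte libraries. It does not separate the oocytes from the preparation of their libraries. No pair of libraries was identical.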

Additional observations from a re-analysis of the deposited data

Results flagged for a closer look

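The level of Gdf9 in the first SN-MII oocyte, 9592 CPM, lay apart from the other 3 SN-MII oocytes, at 11618 to 11855 CPM, by Dixon's criterion for the gap at the end of a group. In 4 values this criterion is met by chance in about 1 in 20 groups, and it was met in 1 of the 12 sets of values examined (6 genes on 2 scales in SN-MII oocytes, the other groups having 3 libraries). In FPKM the same oocyte had 4995 against 5687 to 6154 and did not meet it.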

How the results depend on the processing

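With 3 or 4 oocytes per group, differences of the size of the spread between oocytes could not be seen, and Fgf8 at MII rested on few counts. The sign of differences close to 0 is not defined by these data. From GV to MII, Fgf8, Gja4, Gdf9, Kit and Bmp6 over both types, Fgf8, Gja4, Gdf9 and Bmp6 in SN oocytes and Fgf8, Gja4 and Kit in NSN oocytes kept direction and call under all 21 alternatives. The causes of the changes below were not tested.

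Between types at MII, Bmp15 was called, as 1 of the 6 genes, with no filter on low counts (-1.17), with DESeq2 (-1.17) and with all 13 libraries in 1 fit (-1.17). Leaving out 1 library gave -1.38 to -0.88 and 0 to 1 of the 6 genes called. The genes called at MII, 28 in all, were 16 with the library total, 57 with no filter, 218 with DESeq2, 74 with all 13 libraries, 2 to 4 with limma and 3 to 240 without 1 library, with 7, 5 and 9 without SN-MII oocytes 2, 3 and 4, and 3, 7 and 240 without NSN-MII oocytes 1, 2 and 3. In the interaction, 2 genes in all, they were 0 to 12, 6 with no filter, 46 with DESeq2 and 1 to 4 with limma. At GV limma called 1 at either pseudocount, and 0 with no FPKM filter. Leaving out 1 library took the log2 fold change at GV from -0.16 to 0.13 for Bmp15, -0.29 to 0.039 for Fgf8, -0.39 to 0.22 for Kit and -0.055 to 0.18 for Gja4, and at MII from -0.61 to 0.20 for Fgf8. In the interaction it ran from -0.48 to 0.32 for Fgf8 and from -0.41 to 0.21 for Kit, for which limma gave 0.095 with log2(FPKM + 1), filtered or not, and 0.10 with log2(FPKM + 0.1).

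From GV to MII over both types, Bmp15 had -0.12 with the library total and -0.024 with each limma setting, and 0.057 to 0.27 without 1 library. In SN oocytes it was no longer called with the library total (0.42) or with limma at either pseudocount or with no FPKM filter (0.56 each, adjusted p 0.0921, 0.0983 and 0.211). Leaving out 1 library gave 0.69 to 0.74, with the call lost only without the third SN GV oocyte (adjusted p = 0.0539). Kit in SN oocytes was no longer called with limma and no FPKM filter (1.01, adjusted p = 0.0547). In NSN oocytes Bmp6 was called with the library total (-0.86) and DESeq2 (-0.62), ranging from -0.78 to -0.44 without 1 library, and Gdf9 ranged from 0.32 to 0.64 without 1 library and was 0.15 with the library total. The library total alone moved the share of rises among called genes from 46.3% to 36.7%. In CPM the mean log2 ratio of Bmp15 to Gdf9 was -1.06, -1.49, -1.55 and -2.42 in SN GV, NSN GV, SN-MII and NSN-MII oocytes, against -1.91, -2.34, -2.40 and -3.27 in FPKM.

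Deviations of same-numbered oocytes of different groups correlated over genes with r from -0.42 to 0.21. Differently numbered oocytes were not compared, so these values do not settle whether the numbers pair oocytes. The main tests did not pair them. With the replicate block, Bmp15 in SN oocytes was not called between stages (0.69, adjusted p = 0.0508), 5 of the 6 genes were called there, and 3 genes in all were called at MII. It changed no other call of the 6 genes.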
